A study of Mus musculus with 81 samples.

Results

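The receptor chains and signal transducers of the interferon and IL-10 systems were followed as a set of 9 genes out of 57010 in the deposited count tables. The members were taken by symbol and not by a rule on their values, though with earlier results of these data known. They were the receptor chains Ifnar1, Ifnar2, Ifngr2 and Il10rb, which lie in the segment of mouse chromosome 16 (Mmu16) that is triplicated in Ts65Dn mice, and the disomic genes Ifngr1, Jak1, Jak2, Tyk2 and Stat2. All 9 were present in the count tables of the 3 neuronal populations.

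RNA-seq was performed on CA1 pyramidal neurons (CA1 PNs), CA3 pyramidal neurons (CA3 PNs) and dentate gyrus granule cells (DGCs), cut as groups of Nissl-stained neurons from rostral hippocampus by laser capture microdissection (LCM). Ts65Dn (Ts) mice, a model of Down syndrome with an extra chromosome that holds a segment of Mmu16 and also a Mmu17 segment outside the human chromosome 21 orthologs, were compared with disomic (2N) mice from the same matings of Ts65Dn females with F1 males (C57Bl/6J Eicher × C3H/HeSnJ). All mice were males of about 6 months (MO), born to dams fed chow with choline chloride at 1.1 g/kg (ChN) or 5.0 g/kg (ChP) until weaning and kept on the control diet afterwards. There were 81 libraries: on ChN 6 2N and 5 Ts of CA1 PNs, 6 and 6 of CA3 PNs and 6 and 6 of DGCs, and on ChP 7 2N and 9 Ts of CA1 PNs, 7 and 7 of CA3 PNs and 7 and 9 of DGCs. The ChN libraries came from 12 mice and the ChP libraries from 16 other mice, and most mice gave all 3 populations, so that genotype was compared in 2 sets of animals with no mouse in common.

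Library totals ranged from 358355 to 4744036 expected counts. The lists of DGC and CA3 markers summed to 1940–2420 CPM in DGCs and 774–974 CPM in CA3 PNs, while the CA1 list spanned 54.2–2000 CPM in CA1 PNs. A ChN CA1 library labelled 2N, of mouse 17-21, held 82.5 CPM of CA1 markers against 1070–2000 in the other 2N libraries, and 1770 CPM of CA2 markers against 71.0–514. It also held 585 CPM of CA3 markers against 21.3–184. Another, the library labelled 2N of mouse 17-154, held Ifnar1 at 53.5 CPM, inside the Ts range of 49.8–73.0 and above the other 2N libraries (28.8–37.8), although the CA3 and DG libraries of that mouse were at 35.8 and 29.0 CPM. The labels of mouse 15-145 disagree, its CA3 library being given as Ts and its CA1 and DG libraries as 2N. Counted with the 2N group, it held Ifnar1 at 29.8 CPM, inside the range of the other CA3 2N libraries on ChN (24.5–39.9) and below the Ts range (49.0–59.5). Genotype differences of the triplicated chains that rest on the CA1 libraries of mice 17-21 and 17-154 are given below with and without them. Those that rest on the CA3 library of mouse 15-145 are given with it taken as 2N and as Ts.

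Type I interferons signal through a receptor of the chains IFNAR1 and IFNAR2, type II interferon through IFNGR1 and IFNGR2, and IL-10 through IL10RA with the shared chain IL10RB, which also serves type III interferons and relatives of IL-10. These chains have no enzyme activity of their own and bind the Janus kinases JAK1, JAK2 and TYK2, which phosphorylate STAT proteins. STAT2 acts with IRF9 in a factor that switches on interferon-stimulated genes, and in brain the pathway is known for antiviral defence and for glial responses.

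The 4 triplicated chains lie side by side on the plus strand of chromosome 16, in the order Ifnar2 (91169618–91202723 on GRCm39), Il10rb (91203012–91224600), Ifnar1 (91281942–91305789) and Ifngr2 (91343906–91362512), within 192895 bases. The disomic members are spread over the genome: Ifngr1 on chromosome 10 (19467697–19485977), Stat2 on chromosome 10 (128106352–128128735), Jak1 on chromosome 4 (101008838–101122487), Jak2 on chromosome 19 (29228677–29290505) and Tyk2 on chromosome 9 (21015363–21042689). The DNA just before the start of Ifnar2, Ifnar1, Ifngr2 and Stat2, from GRCm39 with GENCODE M39 starts, is shown because these 3 chains sit in a single segment yet carry separate promoters. It covers chr16:91169421-91169617 for Ifnar2, chr16:91281692-91281941 for Ifnar1, chr16:91343656-91343905 for Ifngr2 and chr10:128106102-128106351 for Stat2, all on the plus strand, 5′ to 3′. Capitals mark matches to 2 motifs of the pathway, each searched on both strands: the STAT-type motif TTCNNNGAA, in 7.7% of the 21757 promoters of the same 250 bases, and the interferon response core GAAANNGAAA, in 3.32% of them.
Ifnar2: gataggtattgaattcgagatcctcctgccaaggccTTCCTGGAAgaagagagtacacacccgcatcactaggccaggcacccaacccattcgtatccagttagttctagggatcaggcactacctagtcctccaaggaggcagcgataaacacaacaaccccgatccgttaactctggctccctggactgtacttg
Ifnar1: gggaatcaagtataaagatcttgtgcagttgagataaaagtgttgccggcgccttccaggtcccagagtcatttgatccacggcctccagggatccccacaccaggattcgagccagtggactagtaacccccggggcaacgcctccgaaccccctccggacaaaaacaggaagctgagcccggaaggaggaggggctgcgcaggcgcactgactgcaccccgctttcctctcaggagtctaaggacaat
Ifngr2: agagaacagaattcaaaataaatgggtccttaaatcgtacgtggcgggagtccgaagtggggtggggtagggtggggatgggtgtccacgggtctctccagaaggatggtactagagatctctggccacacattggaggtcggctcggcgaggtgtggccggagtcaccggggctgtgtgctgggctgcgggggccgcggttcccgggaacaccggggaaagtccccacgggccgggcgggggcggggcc
Stat2: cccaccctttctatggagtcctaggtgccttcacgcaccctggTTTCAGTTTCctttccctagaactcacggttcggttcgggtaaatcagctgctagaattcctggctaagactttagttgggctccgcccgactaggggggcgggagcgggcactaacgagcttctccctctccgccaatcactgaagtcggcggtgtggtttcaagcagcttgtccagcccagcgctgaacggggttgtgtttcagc
Ifnar2 held the STAT-type letters 214 bases before the start of its canonical transcript (91169671, inside the gene's annotated span), and the sequence shown ends before the first annotated base of the gene. For the other genes both starts are the same. Stat2 held the interferon response core on the other strand 207 bases before its start. Jak2, not printed, held the STAT-type letters 138 bases before its start. The windows of Ifnar1, Ifngr2, Ifngr1, Jak1 and Tyk2 held neither motif. These are matches of letters and were not tested for binding. The window of Ifnar1 overlaps an annotated antisense noncoding gene model.

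On the deposited TPM scale, which is per length and so allows levels of different genes to be compared, Jak1 had the highest median over the 81 libraries at 60.89 TPM. Ifngr2 (19.35), Ifnar1 (14.16) and Ifnar2 (11.21) followed, then Stat2 (8.73) and Jak2 (8.64), and Tyk2 (3.76), Ifngr1 (2.74) and Il10rb (2.59) were lowest. Counts per library were 75–1268 for Jak1 and 8–253 for Ifngr2, but only 0–29 for Il10rb and 0–23 for Ifngr1, which were at 0 in 12 and 4 libraries. The type I chains, the signalling chain for type II interferon and the kinases were thus counted in every library, while the other chain of the type II receptor and the shared IL-10 chain were near the detection limit. Stat2 and Jak2, next to each other in this order, ranged over 5–72 and 17–179 counts. In bulk captures, a lower share of cells of a type and less RNA per cell cannot be told apart.

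Ifnar1, Ifnar2 and Ifngr2 were higher in Ts than in 2N in all 3 populations and on both diets, while Il10rb, at low counts, was not called throughout. With edgeR's quasi-likelihood test, fitted over all genes of a population and diet, these 3 chains were higher in Ts in 18 of 18 tests at an unadjusted p under 0.05, the threshold at which the study called differentially expressed genes (DEGs), and 6 of these passed after Benjamini-Hochberg adjustment over all genes. By comparison, the share of all tested genes called higher in Ts on ChN was 1.78% for CA1 PNs, 4.90% for CA3 PNs and 4.55% for DGCs, and on ChP 2.14%, 2.67% and 3.95%. Il10rb could be tested in 5 comparisons, and its 2 calls are set aside below, since it passed the filter on low counts there mainly through the Ts libraries. The 5 disomic members were called in 0 of 30 tests, where 3.77%, 9.20% and 8.50% of genes were called in either direction in CA1 PNs, CA3 PNs and DGCs on ChN and 3.60%, 4.99% and 7.60% on ChP.

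**Figure D1:**
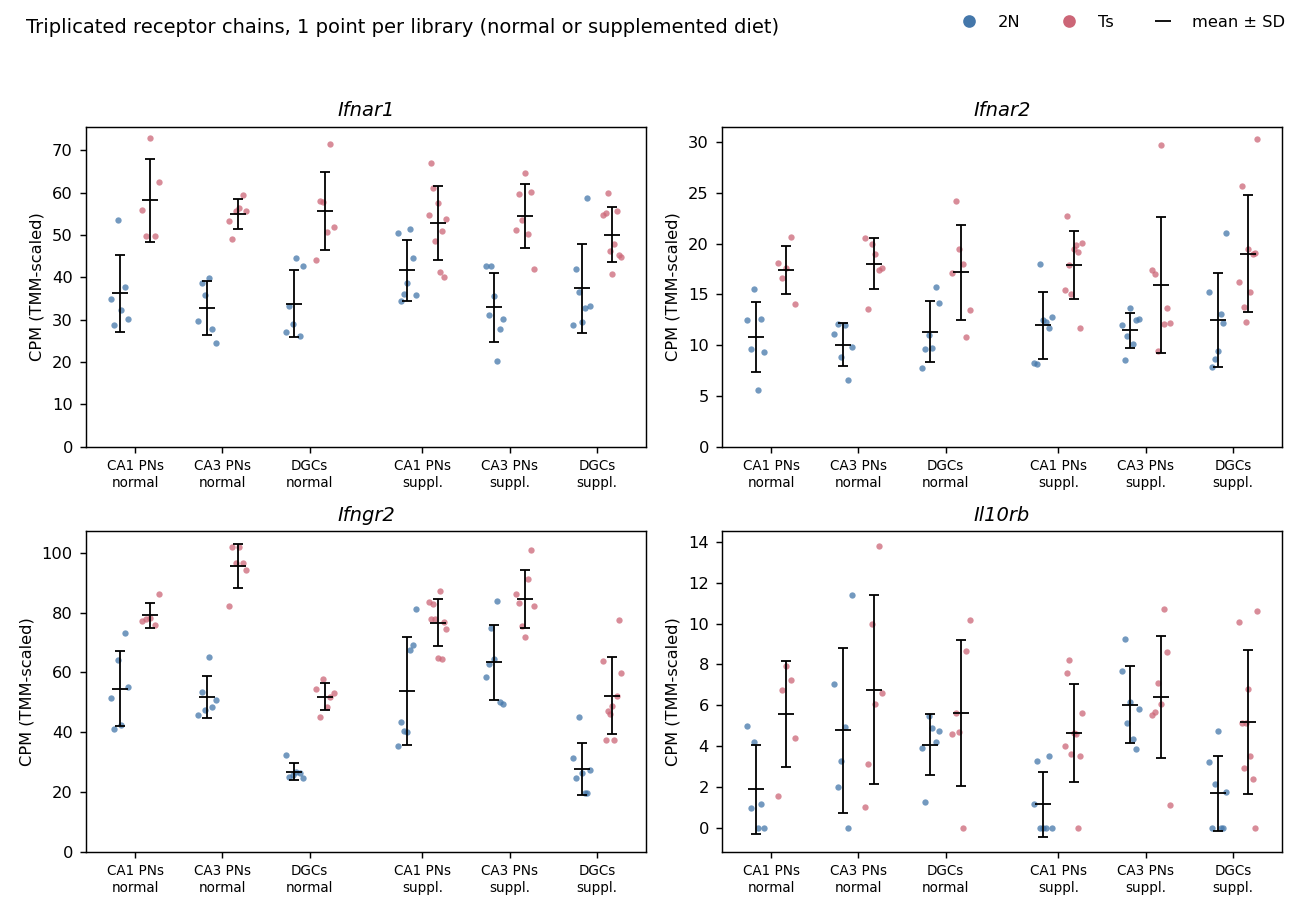
Level of Ifnar1, Ifnar2, Ifngr2 and Il10rb in CPM (y axis) in every library of CA1 PNs, CA3 PNs and DGCs on ChN and ChP, with 2N in blue and Ts in red and the mean ± SD of each group. The Ts mean lies above the 2N mean for Ifnar1, Ifnar2 and Ifngr2 in all panels, without overlap of the libraries for Ifngr2 on ChN, while Il10rb stays low and reaches 0 in some libraries.

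Ifnar1, the type I receptor chain that carries Tyk2, was 1.27 to 1.68 times as high in Ts as in 2N over the 6 comparisons. The scale here is CPM with a single TMM scaling over all 81 libraries. In CA1 PNs on ChN the 5 Ts libraries held 55.9, 49.8, 73.0, 49.8 and 62.5 CPM, and the 2N libraries ran from 28.8 over a median of 33.7 to 53.5. In CA3 PNs on ChN, 2N libraries ran from 24.5 over 32.8 to 39.9 and Ts libraries from 49.0 over 55.7 to 59.5. All 6 Ts libraries of CA3 PNs lay above all 6 2N libraries, and in CA1 PNs the 2N library inside the Ts range was that of mouse 17-154. With the CA3 library of mouse 15-145 (29.8 CPM) taken as Ts, the genotypes overlapped in CA3 PNs. In DGCs on ChN, 2N libraries ran from 26.2 over 31.1 to 44.6 and Ts libraries from 44.1 over 54.9 to 71.4, so that 1 2N library reached the lowest Ts library. The log2 fold change (LFC) of Ts over 2N was called in each population by edgeR, at 0.64 for CA1 PNs (SE 0.18, adjusted p = 1.0), 0.73 for CA3 PNs (SE 0.13, adjusted p = 0.000633) and 0.68 for DGCs (SE 0.15, adjusted p = 0.00926). Without the CA1 libraries of mice 17-154 and 17-21, the CA1 value was 0.87 (adjusted p = 0.0607), and those of Ifnar2 and Ifngr2, described next, were 0.90 (adjusted p = 0.605, against 0.63 with them) and 0.73 (adjusted p = 0.0718, against 0.51).

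The mice of the supplemented dams gave the same direction for Ifnar1. On ChP, 2N libraries of CA1 PNs, CA3 PNs and DGCs ran from 34.4 over 38.8 to 51.5 CPM, from 20.2 over 31.1 to 42.8 and from 28.8 over 33.3 to 58.8. Ts libraries ran from 40.2 over 53.7 to 67.0, from 42.1 over 53.6 to 64.7 and from 40.9 over 47.9 to 60.0. The genotypes overlapped in each population, although 9 of 9, 7 of 7 and 9 of 9 Ts libraries lay above the 2N median. All 3 differences were called again, with an LFC of 0.35 (SE 0.14, adjusted p = 1.0), 0.70 (SE 0.14, adjusted p = 0.00486) and 0.47 (SE 0.15, adjusted p = 0.17). The CA1 value lost its call without mouse 15-269, at an LFC of 0.29 (adjusted p = 1.0). The 95% interval of the LFC held 0.585, the log2 of 1.5, in all 6 comparisons.

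Ifnar2, the partner chain of the type I receptor that binds Jak1, moved with Ifnar1 but at lower counts of 4–68.59 per library. In CA1 PNs on ChN the Ts libraries held 18.1, 16.6, 17.6, 20.7 and 14.1 CPM against 5.57 over 11.1 to 15.5 in 2N. In CA3 PNs on ChN, 2N ran from 6.6 over 10.5 to 12.1 and Ts from 13.6 over 18.3 to 20.6. In DGCs on ChN, 2N ran from 7.77 over 10.4 to 15.7 and Ts from 10.8 over 17.5 to 24.2. The genotypes were apart in CA3 PNs and overlapped in the other populations. With the CA3 library of mouse 15-145 (11.1 CPM) taken as Ts, they overlapped in CA3 PNs too. The LFC was called in CA1 PNs (0.63, SE 0.26, adjusted p = 1.0), CA3 PNs (0.82, SE 0.22, adjusted p = 0.0607) and DGCs (0.64, SE 0.24, adjusted p = 0.399), and no Ifnar2 difference passed adjustment on this diet. The CA1 call was lost without mouse 17-157 (LFC 0.57) or 17-172 (0.51) and the DGC call without 16-490 (0.50).

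On ChP, the Ifnar2 LFC was called at 0.58 (SE 0.21, adjusted p = 1.0) for CA1 PNs, 0.52 (SE 0.23, adjusted p = 0.926) for CA3 PNs and 0.56 (SE 0.23, adjusted p = 0.465) for DGCs. The size of the CA3 value rested on a single library. The Ts libraries of CA3 PNs ran from 9.46 over 13.7 to 29.7 CPM against 8.59 over 12 to 13.7 in 2N, the highest being mouse 15-245, and without it the LFC was 0.25 and not called (adjusted p = 0.999). Leaving out mouse 15-269 ended the calls of CA3 PNs (0.46) and DGCs (0.45), and leaving out 17-03 that of DGCs (0.42). In CA1 PNs 2N ran from 8.2 over 12.3 to 18.0 and Ts from 11.7 over 19.2 to 22.7, and in DGCs 2N ran from 7.83 over 12.2 to 21.1 and Ts from 12.3 over 19.0 to 30.3. The groups overlapped in each population. A read-through model, Gm21970, overlaps Ifnar2 and Il10rb, and the counting shared reads among them: counts were not whole in 29.63% of libraries for Ifnar2 and 19.753% for Il10rb. The Ifnar2 and Il10rb values are therefore uncertain. On ChN, Gm21970 was at 0 in 5 of 5 Ts and 2 of 6 2N libraries of CA1 PNs. In CA3 PNs this was 5 of 6 and 3 of 6, and in DGCs 4 of 6 and 5 of 6. On ChP it was 7 of 9 and 2 of 7, 5 of 7 and 5 of 7, and 8 of 9 and 3 of 7. With the 3 models summed, the LFC for CA1 PNs, CA3 PNs and DGCs was 0.55, 0.58 and 0.60 on ChN and 0.68, 0.40 and 0.57 on ChP, each called except that of CA1 PNs on ChN (adjusted p = 1.0).

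Ifngr2, the chain of the type II interferon receptor that brings Jak2, was the member whose genotypes stood apart most often, in 3 of 6 comparisons. In CA1 PNs on ChN the Ts libraries held 77.1, 78.0, 78.2, 75.7 and 86.2 CPM against 41.2 over 53.2 to 73.3 in 2N. In CA3 PNs on ChN, 2N ran from 45.7 over 49.5 to 65 and Ts from 82.2 over 96.7 to 102. In DGCs on ChN, 2N ran from 24.7 over 26.0 to 32.4 and Ts from 45.1 over 52.5 to 57.8. Every Ts library lay above every 2N library in all 3 populations on ChN, the doubted CA1 libraries of mice 17-21 (73.3 CPM) and 17-154 (64.0 CPM) included. Ifnar1 and Ifnar2 showed this separation in CA3 PNs only. With the CA3 library of mouse 15-145 taken as Ts, at 45.7 CPM of Ifngr2, none of the 3 chains was apart in CA3 PNs. The share of all genes with every Ts library above every 2N library was 0.293%, 0.602% and 0.484% for CA1 PNs, CA3 PNs and DGCs on ChN and 0.0839%, 0.242% and 0.240% on ChP, where no member was among them.

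The LFC of Ifngr2 was called in all 6 comparisons. On ChN it was 0.51 for CA1 PNs (SE 0.16, adjusted p = 1.0), 0.90 for CA3 PNs (SE 0.11, adjusted p = 3.01e-07) and 0.95 for DGCs (SE 0.15, adjusted p = 2.98e-05). In CA3 PNs and DGCs the 95% intervals, 0.68–1.12 and 0.65–1.25, lay above 0.585. On ChP, the 2N libraries of CA1 PNs, CA3 PNs and DGCs ran from 35.3 over 43.4 to 81.1 CPM, from 49.5 over 62.8 to 83.8 and from 19.6 over 26.5 to 45.2, and the Ts libraries from 64.4 over 77.8 to 87.1, from 72.0 over 83.3 to 101 and from 37.3 over 48.7 to 77.4. The groups overlapped, with 7 of 9 Ts libraries of DGCs above the highest 2N library and 3 of 9 and 3 of 7 in CA1 PNs and CA3 PNs. The LFC on ChP was 0.50 for CA1 PNs (SE 0.16, adjusted p = 0.792), 0.43 for CA3 PNs (SE 0.12, adjusted p = 0.149) and 0.92 for DGCs (SE 0.16, adjusted p = 0.000106), where the interval of 0.60–1.23 again lay above 0.585. Ifngr2 kept its call in all 6 comparisons without any 1 mouse. With the CA3 library of mouse 15-145 taken as Ts, the CA3 ChN value was 0.69 (adjusted p = 0.319), and those of Ifnar1 and Ifnar2 were 0.53 (adjusted p = 0.33) and 0.73 (adjusted p = 0.449), all 3 still called.

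Il10rb, the chain shared by the receptors for IL-10, its relatives and type III interferons, was low in every group. In CA1 PNs on ChN the Ts libraries held 1.57, 6.76, 7.91, 7.26 and 4.4 CPM and the 2N libraries ran from 0 over 1.05 to 5.0. It was not tested there, since the filter on low counts needs 10 libraries and 9 of 11 had a rounded count above 0. In CA1 PNs and DGCs on ChP it passed that filter mainly through the Ts libraries (8 of 9 against 3 of 7, and 8 of 9 against 4 of 7 with a count). Passing in this way goes with a difference in detection. Its LFC there of 1.83 (adjusted p = 1.0) and 1.41 (adjusted p = 0.355) are therefore given as values only. In CA3 PNs, where nearly all libraries held counts, 2N ran from 0 over 4.08 to 11.4 CPM and Ts from 1.03 over 6.33 to 13.8 on ChN, and 2N from 3.84 over 5.82 to 9.25 and Ts from 1.11 over 6.04 to 10.7 on ChP. The groups overlapped almost fully. The LFC was 0.66 (95% interval −0.38 to 1.70, adjusted p = 0.769) on ChN and 0.10 (−0.55 to 0.76, adjusted p = 0.999) on ChP, and in DGCs on ChN 0.40 (−0.53 to 1.34, adjusted p = 0.905), intervals that hold both 0 and 0.585.

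**Figure D2:**
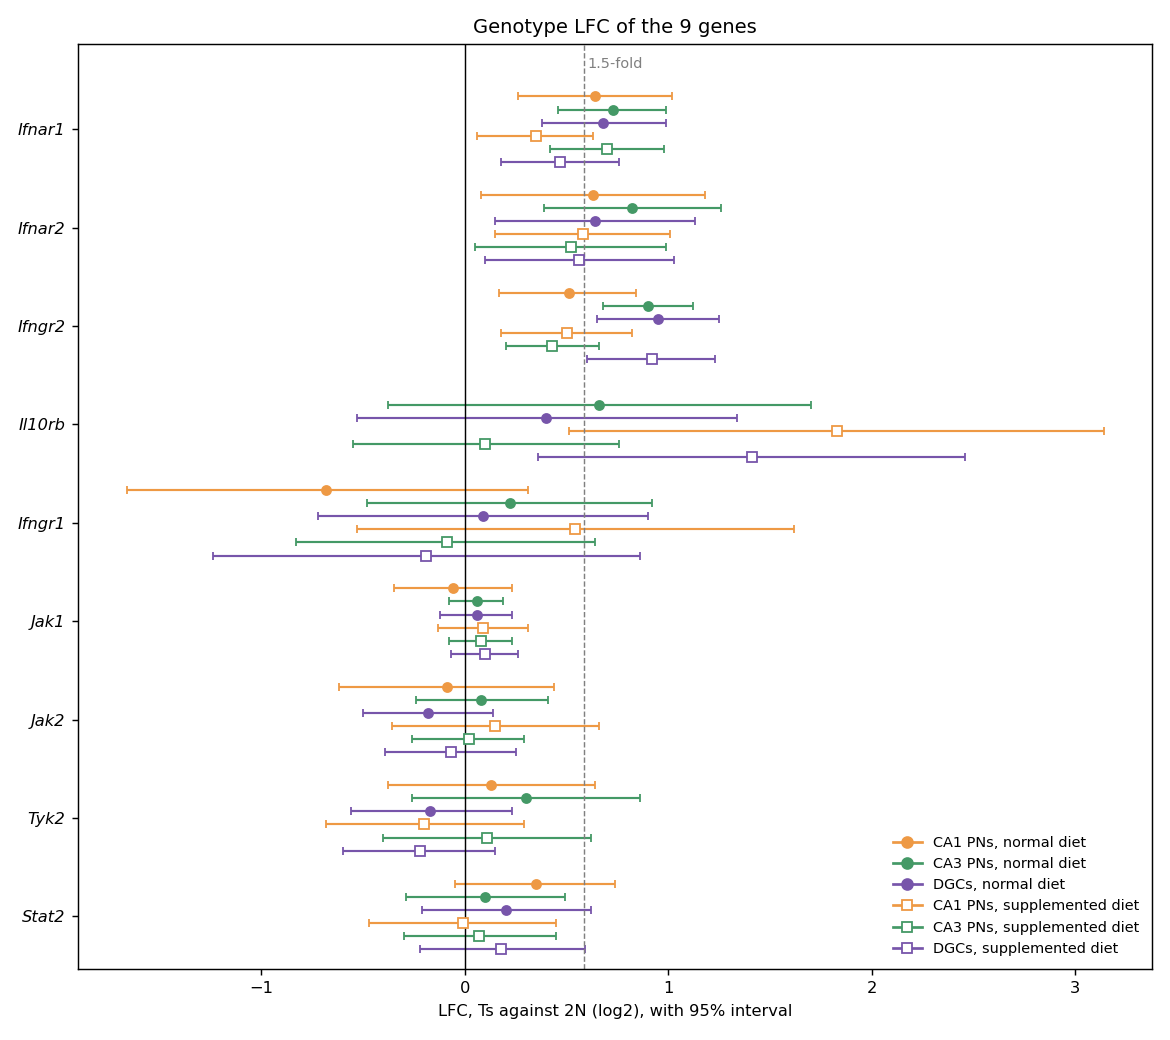
LFC of Ts over 2N (x axis, log2) with its 95% interval for each member in the 6 genotype comparisons, the dashed line marking 1.5-fold. Ifnar1, Ifnar2 and Ifngr2 lie right of 0 in every comparison, while the intervals of Ifngr1, Jak1, Jak2, Tyk2 and Stat2 all hold 0.

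Many other triplicated genes of the segment were also called higher in Ts, with a larger share in CA3 PNs and DGCs than in CA1 PNs. Of 64 further Mmu16 genes on the study's list of triplicated genes, 24 of 59 tested (40.7%) were called higher on ChN for CA1 PNs, 48 of 62 (77.4%) for CA3 PNs and 47 of 61 (77.0%) for DGCs, and 38 of 62 (61.3%), 46 of 63 (73.0%) and 48 of 63 (76.2%) on ChP, with none lower. Their median LFC was 0.39, 0.55 and 0.54 on ChN and 0.46, 0.53 and 0.60 on ChP, and that of all genes −0.01 to 0.02. The tested receptor chains had medians of 0.63, 0.78 and 0.66 on ChN and 0.48 in CA3 PNs on ChP. These include Il10rb except in CA1 PNs on ChN. In CA1 PNs and DGCs on ChP, where Il10rb is set aside, Ifnar1, Ifnar2 and Ifngr2 were at 0.35, 0.58 and 0.50 and at 0.47, 0.56 and 0.92. The list is that of the study, which drew it up on these samples, and is not independent evidence of its direction. Genes on either side of the chains also had LFC above 0 over the 6 comparisons: before them Synj1, which encodes a phosphoinositide phosphatase of synaptic vesicle recycling, had LFC of 0.44–0.69 (called in 6 of 6) and Paxbp1 0.30–0.72 (5 of 6), and after them Tmem50b had 0.38–0.61 (6 of 6), the purine synthesis enzyme Gart 0.51–0.78 (6 of 6) and the splicing cofactor Son 0.54–0.78 (6 of 6). Urb1 (0.42–1.02, 5 of 6), Cfap298 (0.11–0.63, 5 of 6) and Donson (0.22–1.1, 4 of 6) ranged more widely. Olig1, an oligodendrocyte transcription factor (0.14–0.73), and Dnajc28 (0.19–0.66) were called in 1 of 6 comparisons each.

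**Figure D3:**
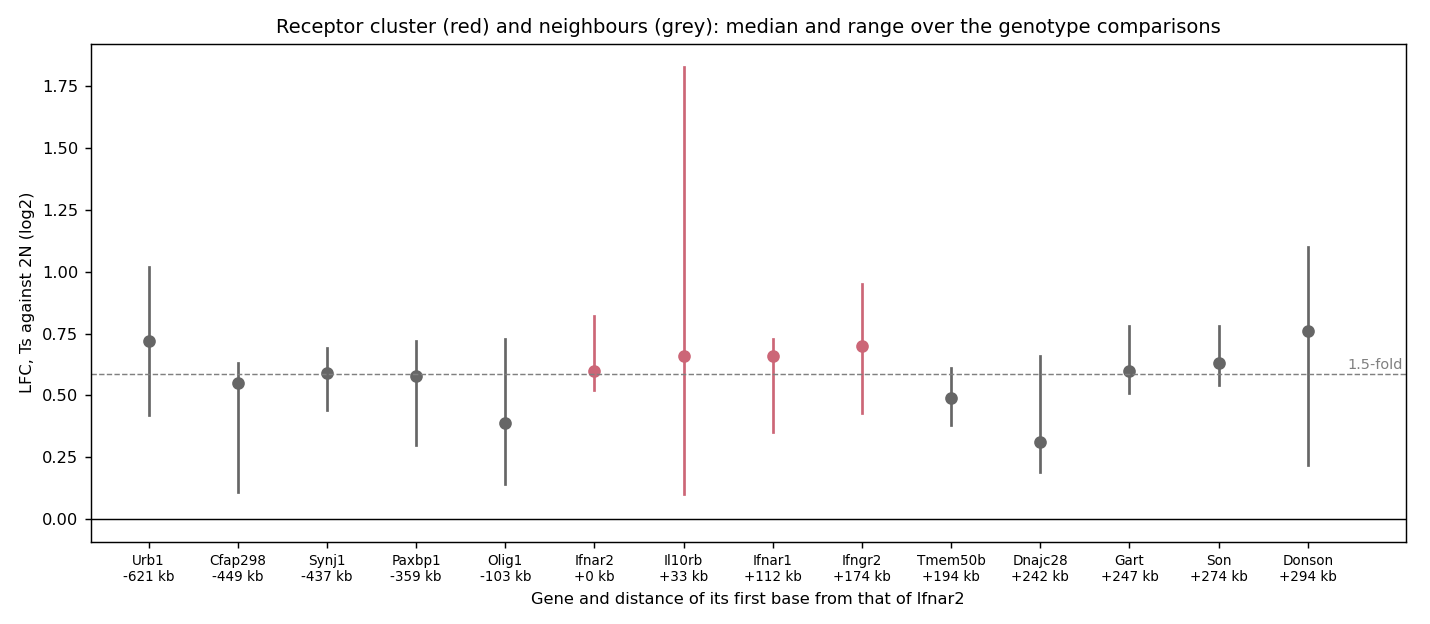
LFC of Ts over 2N (y axis, log2) of the 4 receptor chains and of 5 tested neighbours on each side. Shown are the median and range over the genotype comparisons in which each was tested. Genes stand evenly spaced in their order along chromosome 16 (x axis), with distances in the labels. The chains and most neighbours lie around the 1.5-fold line, with Il10rb spread from 0.10 to 1.83.

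None of the disomic members was called between genotypes, and the precision of this differed among them. Ifngr1, the ligand-binding chain that pairs with Ifngr2, held 0.787–7.26 CPM in the CA1 Ts libraries on ChN against 4.46–7.74 in 2N, and its LFC ran from −0.68 to 0.54 over the 6 comparisons with adjusted p of at least 0.919. At 0–23 counts per library its intervals were wide, from −1.66 to 1.62 over all comparisons, and 5 of 6 held 0.585. The most precise values were those of Jak1, the kinase used by all of these receptors. In CA3 PNs on ChN, Jak1 ran from 265 over 294 to 314 CPM in 2N and from 293 over 299 to 327 in Ts, and in DGCs from 152 over 190 to 213 and from 182 over 189 to 230. The genotypes overlapped, the LFC ran from −0.06 to 0.10, and no interval reached above 0.31, so that a difference of 1.5-fold lay outside the interval in each of the 6 comparisons.

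Jak2, the kinase of the IFNGR2 chain, and Tyk2, that of IFNAR1, had LFC of −0.18 to 0.15 and −0.22 to 0.30 with edgeR adjusted p of at least 0.852 and 0.829. Their intervals held 0 in every comparison. A difference of 1.5-fold also lay inside the interval in 1 of 6 comparisons for Jak2 and 3 of 6 for Tyk2. Jak2's CA1 libraries were widely spread, at 26.0, 57.1, 49.2, 52.9 and 57.2 CPM in Ts and 28.6–76.8 in 2N on ChN. Stat2, which carries the type I signal to the nucleus, held 33.8, 29.5, 29.0, 23.9 and 23.8 CPM in CA1 Ts libraries on ChN against 17.7 over 21.6 to 24.9 in 2N. There 3 of 5 Ts libraries lay above the highest 2N library, and the LFC of 0.35 (SE 0.19, adjusted p = 1.0) missed the threshold. In the other 5 comparisons its LFC was −0.01 to 0.20. The Stat2 intervals held 0 in all 6 comparisons and a difference of 1.5-fold in 3 of them.

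**Figure D4:**
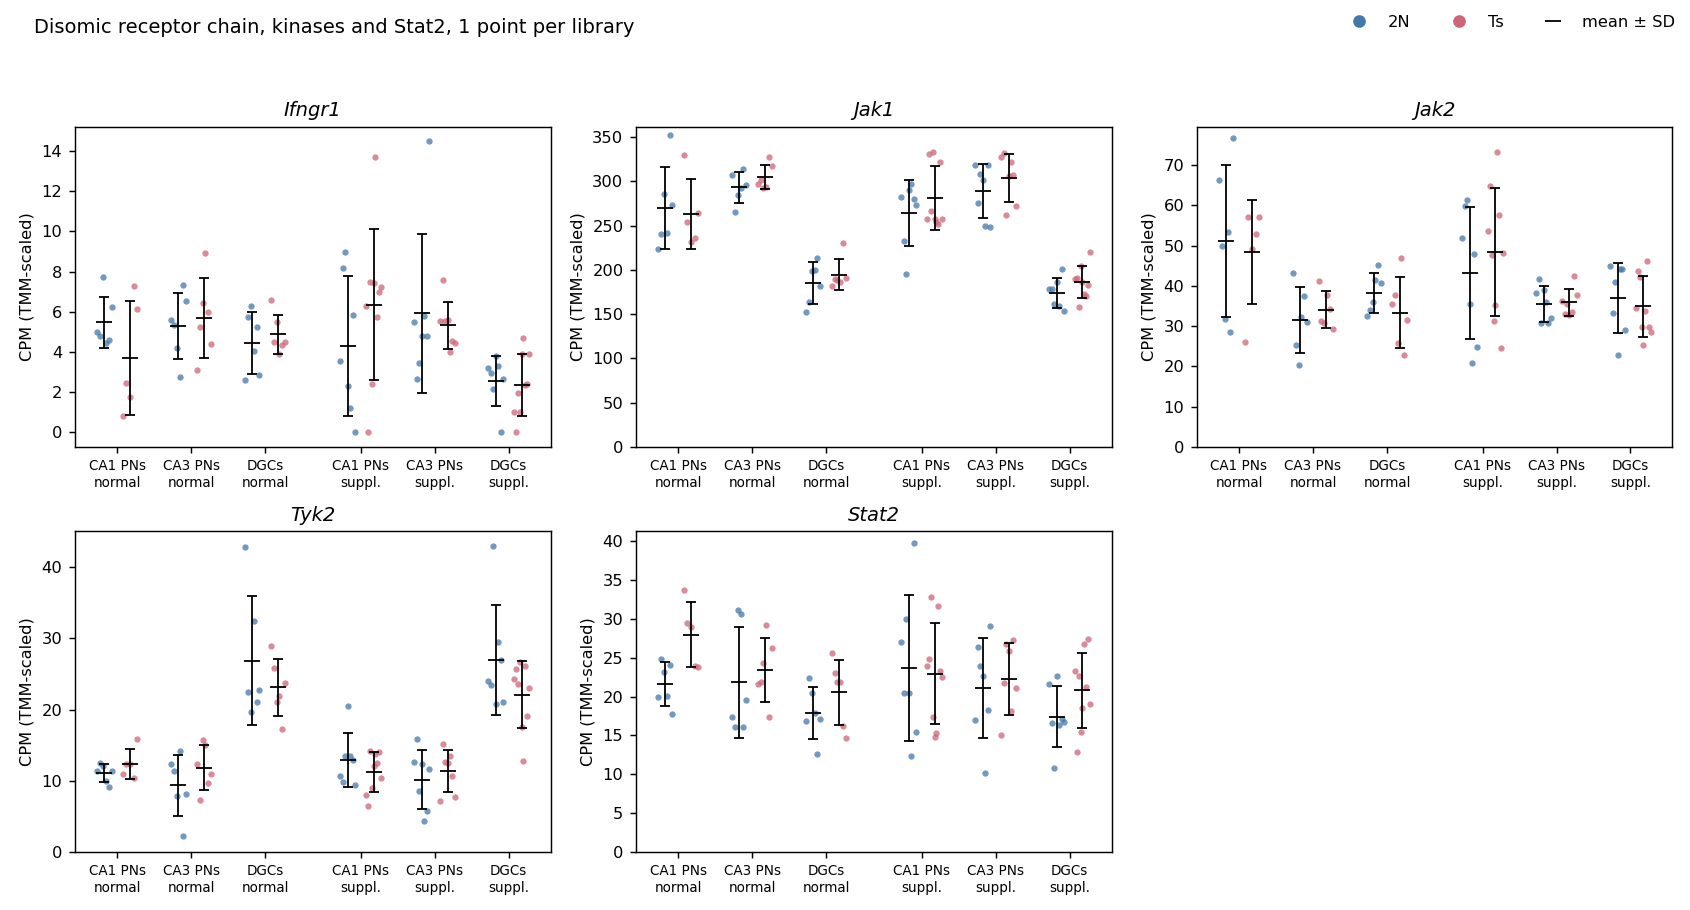
Level of Ifngr1, Jak1, Jak2, Tyk2 and Stat2 in CPM (y axis) in every library by population and diet, 2N in blue and Ts in red, with the mean ± SD of each group. Genotypes overlap in all panels, Tyk2 is higher in DGCs, and Jak1 is lower there.

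Whether maternal choline moved the members was read from fits over all 4 groups of a population, which share their libraries with the genotype comparisons. In 2N mice, 1 member was called between diets in CA3 PNs, beside 4.90% of all genes, and 0 in CA1 PNs (3.27%) and DGCs (5.82%). This was Ifngr2, higher on ChP with an LFC of 0.29 (SE 0.12, edgeR adjusted p = 0.946). In Ts mice, 1 was called in DGCs (3.81%) and 0 in CA1 PNs (3.05%) and CA3 PNs (4.19%). This was Ifngr1, lower on ChP with an LFC of −0.96 (SE 0.45, adjusted p = 0.999), from 3.91 over 4.51 to 6.58 CPM on ChN to 0 over 2.37 to 4.67 on ChP, at counts of at most 10. Neither passed adjustment.

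Of 27 tests of whether a member's genotype difference varied with diet, 1 was called, near the share of all genes. In CA3 PNs the Ifngr2 difference was smaller on ChP by 0.46 on the log2 scale (interaction −0.46, SE 0.16, adjusted p = 0.983), the LFC being 0.90 on ChN and 0.43 on ChP. The 2N median moved from 49.5 to 62.8 CPM and the Ts median from 96.7 to 83.3. The interaction was called for 1 of 9 members in CA3 PNs, where 4.87% of genes were called, and for 0 in CA1 PNs (3.22%) and DGCs (3.97%). Without the library labelled 2N of mouse 17-154, Ifnar1 in CA1 PNs gained a call, with an interaction of −0.47 (adjusted p = 1.0).

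Ifngr2, Jak1 and Tyk2 differed between DGCs and both pyramidal populations, here compared in 2N mice with the mouse as a block. Members were called between populations at a rate near or below that of all genes, with the counts given further down. Ifngr2 was lowest in DGCs: on ChN, CA1 PNs ran from 41.2 over 53.2 to 73.3 CPM, CA3 PNs from 45.7 over 49.5 to 65 and DGCs from 24.7 over 26.0 to 32.4. CA1 PNs were above DGCs in 6 of 6 mice on ChN and 6 of 7 on ChP, and CA3 PNs in 6 of 6 and 7 of 7. The LFC of CA1 PNs over DGCs was 1.0 (adjusted p = 1.33e-05) on ChN and 0.90 (adjusted p = 0.000274) on ChP, and that of CA3 PNs over DGCs 0.92 (adjusted p = 2.1e-05) and 1.15 (adjusted p = 2.5e-06). The difference between CA1 and CA3 PNs did not pass the threshold (LFC 0.08 and −0.25, adjusted p 0.79 and 0.323).

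Jak1 and Tyk2 ran in opposite directions between pyramidal neurons and granule cells. Jak1 medians in 2N mice on ChN were 257, 294 and 190 CPM for CA1 PNs, CA3 PNs and DGCs, and it was lower in DGCs in each of the 13 2N mice. The LFC of CA1 PNs over DGCs was 0.51 (adjusted p = 9.93e-05) on ChN and 0.57 (adjusted p = 4.01e-06) on ChP, and of CA3 PNs over DGCs 0.64 (adjusted p = 1.58e-06) and 0.71 (adjusted p = 1.5e-08). Tyk2 medians on ChN were 11.3, 9.78 and 22.6 CPM, and it was higher in DGCs in each of the 2N mice. Its LFC was −1.23 (adjusted p = 0.000206) and −1.06 (adjusted p = 0.00078) for CA1 PNs over DGCs, and −1.53 (adjusted p = 2.64e-06) and −1.32 (adjusted p = 1.45e-05) for CA3 PNs over DGCs. On the TPM scale the 2N median of Tyk2 was 9.76 in DGCs against 2.7 and 2.5 in CA1 and CA3 PNs. The same order held in Ts mice, with Jak1 lower in DGCs than in CA1 PNs in 5 of 5 mice on ChN and 9 of 9 on ChP, and Tyk2 higher in 5 of 5 and 8 of 9.

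**Figure D5:**
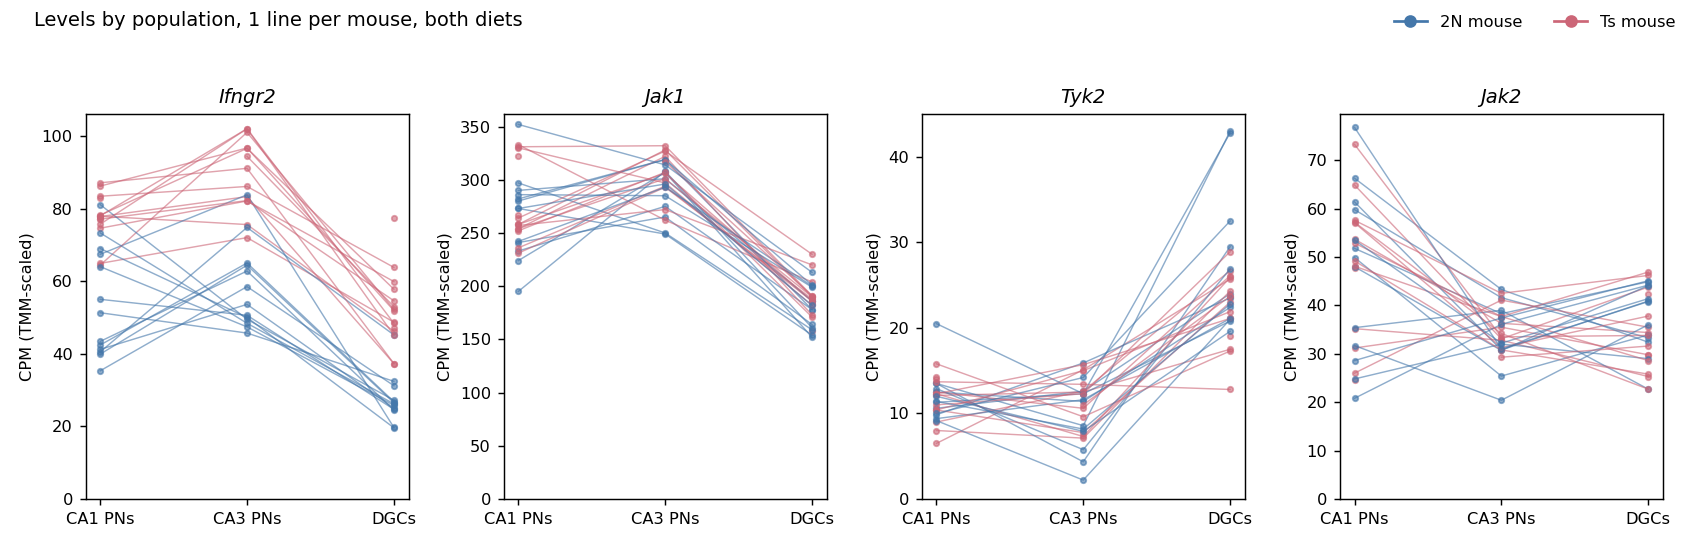
Level of Ifngr2, Jak1, Tyk2 and Jak2 in CPM (y axis) in CA1 PNs, CA3 PNs and DGCs (x axis), each line joining the libraries of 1 mouse, 2N in blue and Ts in red. Ifngr2 and Jak1 fall and Tyk2 rises from pyramidal neurons to DGCs, while the Jak2 lines in CA1 PNs are spread from 20.8 to 76.8 CPM.

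In counts, of the 9 members these were called between populations at an adjusted p under 0.05, beside the share of all genes. The calls lie near or below that share. CA1 against CA3 PNs gave 1 on ChN (23.1%) and 1 on ChP (24.6%), CA1 PNs against DGCs 3 (33.9%) and 3 (33.0%), and CA3 PNs against DGCs 3 (43.3%) and 4 (42.0%). The call between CA1 and CA3 PNs was Jak2 on ChN (LFC 0.66, adjusted p = 0.00555, against 0.24, adjusted p = 0.356, on ChP) and Il10rb on ChP (LFC −2.25, adjusted p = 0.00414), which was also called in CA3 PNs over DGCs (LFC 1.61, adjusted p = 0.0225). Il10rb was at 0 in 4 of the 7 CA1 2N libraries on ChP. Ifnar1, Ifnar2, Ifngr1 and Stat2 were called in no population comparison, the Ifnar1 LFC being −0.14 to 0.29. Whether the genotype difference varied between populations was tested in the same way. On ChN it was called for 0 members between CA1 and CA3 PNs (3.66%), 1 between CA1 PNs and DGCs (4.90%) and 0 for CA3 PNs against DGCs (4.33%), and on ChP for 1 (3.52%), 0 (4.25%) and 0 (3.93%). These were Ifngr2, with a smaller difference in CA1 PNs than in DGCs on ChN (−0.43, SE 0.21, adjusted p = 1.0), and Il10rb (1.75, SE 0.79, adjusted p = 1.0). The Ifngr2 call was lost without mouse 17-21 (−0.34, adjusted p = 0.972) or mouse 17-154 (−0.34, adjusted p = 1.0).

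The levels of members were also set out by the makeup of the CA1 captures. In 6 of 27 CA1 libraries, 3 of each genotype, CA2 markers summed to more than CA1 markers (1110–1770 against 54.2–775 CPM). CA3 markers were also higher in these 6, at 280–728 CPM (median 539) against 14.8–221 (median 33.4) in the other 21. The split therefore does not separate CA2 from CA3 makeup. Jak2 ran from 20.8 over 25.4 to 31.2 CPM in these 6 and from 31.7 over 53.5 to 76.8 in the other 21. Ifngr2 ran from 67.4 to 81.1 CPM in the 3 2N libraries of this kind and from 35.3 over 42.9 to 69.0 in the other 10 2N libraries, whereas among Ts libraries the 3 of this kind (77.0–77.9, median 77.1) lay inside the range of the other 11 (64.4–87.1, median 78.0). Jak1 had medians of 326 and 257 CPM. Ifnar1 and Tyk2 overlapped. The split was made after the data were seen and its differences were not tested. The share of all genes that differ as much in this split, which follows subfield markers, was not counted. Without these libraries Ifngr2 on ChP was at an LFC of 0.74 (adjusted p = 0.0144) in CA1 PNs against 0.50 with them, and at 0.61 (adjusted p = 0.297) against 0.51 on ChN. The values of Ifnar1 were then 0.66 and 0.45 on ChN and ChP and those of Ifnar2 0.65 and 0.74, all still called. Between populations, Jak2 was then called higher in CA1 than in CA3 PNs on ChP too (LFC 0.50, adjusted p = 0.017) and higher in CA1 PNs than in DGCs on both diets (0.49, adjusted p = 0.0187, and 0.46, adjusted p = 0.0422), and Ifngr2 and Jak1 were called lower in CA1 than in CA3 PNs on ChP (−0.47, adjusted p = 0.0219, and −0.25, adjusted p = 0.0271).

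Of the ligands of these receptors, 11 were looked up, without the Ifna genes, and none was detectable at this depth. Ifnb1, Ifne, Ifnk, Ifng, Il10, Il19, Il20, Il22, Il24, Ifnl2 and Ifnl3 had 0 counts in 81 libraries of 101487096 counts in all, which allows a level of up to 0.0296 CPM over all libraries (3 counts), for counting error only. Of 7 other class II receptor chains, 0 of 9 tests over the 6 genotype comparisons were called. Among them were the tissue factor gene F3, at 10.4 CPM in 2N CA3 PNs on ChN (LFC −0.47, adjusted p = 0.68), Il20rb at 10.6 CPM in 2N DGCs (LFC −0.05) and Il10ra, the specific IL-10 chain, at 0.679 CPM over all libraries.

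Of 10 other JAK-STAT transducers, 2 tests were called higher and 1 lower in Ts out of 43 (6.98%). Stat3, which serves IL-10, was lower in CA3 PNs on ChN, at 39.1 ± 7.78 CPM in Ts against 57.7 ± 2.14 in 2N (SD, 6 libraries each), with an LFC of −0.55 (SE 0.13, adjusted p = 0.0178), and on ChP its LFC there was 0.01 (adjusted p = 0.999). Irf9, a partner of Stat2, was called higher in DGCs on ChN (LFC 0.71, adjusted p = 0.568) and had an LFC of −0.01 there on ChP. Of 18 inhibitors of the pathway, 1 of 76 tests was called (1.32%), Pias1 in DGCs on ChP (LFC 0.23, adjusted p = 0.62). Socs4 and Ptpn2, a suppressor and a phosphatase of the pathway, had LFC between −0.32 and 0.32.

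Targets of the pathway were mostly below the filter on low counts. Of 46 interferon-stimulated genes, 5 to 15 could be tested in a comparison, and 5 of 60 tests (8.33%) were called higher in Ts and 0 lower. Cmpk2, a mitochondrial nucleotide kinase, was at 18.3 ± 6.53 CPM in Ts against 9.59 ± 2.03 in 2N CA1 PNs on ChN (LFC 0.87, SE 0.29, adjusted p = 1.0) and had an LFC of −0.40 there on ChP. Eif2ak2, the double-stranded RNA kinase PKR, had an LFC of 0.84 in CA3 PNs on ChN (adjusted p = 0.524) and 1.90 in DGCs on ChP (adjusted p = 0.521), and Ifi27 1.58 in DGCs on ChP (adjusted p = 0.411). In both DGC cases few 2N libraries held a count (2 of 7 and 4 of 7, against 9 of 9 and 8 of 9 in Ts), so that these genes passed the filter mainly through Ts. Mx1 and Mx2, which are themselves triplicated, had 2 and 11 counts over all libraries and were not tested.

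Of 26 interferon-gamma and antigen presentation genes, 4 tests were called higher and 1 lower of 59 (8.47%). The proteasome activator Psme2 was at 6.97 ± 3.77 CPM in Ts and 2.74 ± 1.45 in 2N DGCs on ChN (LFC 1.38, adjusted p = 0.213) and had an LFC of 0.13 there on ChP. The peptide transporter Tap1 was lower in Ts DGCs on ChP (LFC −1.93, adjusted p = 0.175), against 0.49 on ChN. H2-D1, a class I antigen chain, had an LFC of 1.45 in CA1 PNs on ChP (adjusted p = 1.0), where 4 of 7 2N and 9 of 9 Ts libraries held a count, so that it too passed the filter mainly through Ts and is given as a value only. Over these lists no gene but Stat3 passed adjustment, and the shares called in either direction lie within the 3.60%–9.20% of all genes, except that of the inhibitors and of the other receptor chains, which lie below. The 8.33% of interferon-stimulated tests were all higher in Ts and lie above the 1.78%–4.90% of all genes called higher, but 2 of the 5 calls are the DGC cases that passed the filter mainly through Ts. The 4 of 59 interferon-gamma and antigen presentation tests called higher also lie above that share. They include H2-D1 in CA1 PNs on ChP, which is given as a value only.

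Markers of microglia, glial cells known to express these receptors, were counted at a low level in the captures. The 12 microglia markers had a summed level of 22.3–71.4, 25.9–68.3 and 36.5–78.0 CPM over the CA1, CA3 and DG libraries, with none of the 12 at 0 in every library of a group. In CA1 PNs their sum ran from 22.3 over 33.7 to 56.1 CPM in 2N and from 37.0 over 47.2 to 54.7 in Ts on ChN, and from 36.0 over 44.5 to 71.4 and from 35.2 over 45.0 to 51.9 on ChP. In DGCs it ran from 36.5 over 50.3 to 63.0 CPM in 2N and from 47.6 over 55.8 to 67.7 in Ts on ChN, and from 38.6 over 43.1 to 68.8 and from 47.2 over 57.7 to 78.0 on ChP. Of the defining markers, Csf1r averaged 9.15, Cx3cr1 5.14 and P2ry12 2.97 CPM over all libraries, and Tmem119, at 1.73 CPM, was at 0 in 15 of 81. In CA3 PNs the microglia sum ran from 40.9 over 48.8 to 68.3 CPM in 2N and from 34.4 over 45.8 to 66.8 in Ts on ChN. On ChP it ran there from 25.9 over 42.3 to 60.7 CPM in 2N and from 33.3 over 51.6 to 55.2 in Ts. Markers of other cells also differed in level between genotypes in some comparisons. The 6 inhibitory neuron markers summed to a median of 260 CPM in 2N (137–356) and 153 in Ts (124–168) in CA3 PNs on ChN. In DGCs on ChP they summed to 206 (167–249) and 274 (219–319), and the 7 astrocyte markers to 194 (166–227) and 254 (203–300). The part of microglia and of these other cells in the receptor levels was not tested.

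The genes most like each receptor chain were named by Pearson's r of log2 CPM over the means of the 12 groups of population, genotype and diet, among 11470 candidates. The groups share mice and, for the triplicated genes, the genotype step, so that r is a description. Ifnar1 was most like Ltn1 (0.94), Gtf2h5 (0.935) and Ifnar2 (0.929), and Ifnar2 most like Tmem242 (0.957), Gm21926 (0.955) and Ifnar1. Of these, Ltn1 lies on the triplicated part of chromosome 16 and Gtf2h5 and Tmem242 on that of chromosome 17. Ifngr2 was most like Cbr1 (0.96) and Atp5po (0.947), both triplicated, and Efnb1 (0.935), which is not. Il10rb (Cdpf1 0.922, Marchf2 0.908 and Polr1a 0.895) and Ifngr1 (Bin3 0.884, Mettl15 0.859 and Manbal 0.857) were most like disomic genes. Among the members, Jak1 and Tyk2 ran most strongly against each other, at −0.96, and Ifngr2 ran with Stat2 (0.83) and Jak1 (0.80).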

How the data were processed

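RNA-seq libraries of LCM neurons were made by the study with a stranded total RNA kit for small inputs, aligned with STAR and quantified with RSEM per gene, and reads were checked with FastQC 0.11.9, trimmed with Trimmomatic 0.39 and measured with Picard 2.26.2, per the labels. The labels list GRCm39 and mm10 as builds, and the study's methods name GRCm39. The authors deposited expected counts, which need not be whole where genes overlap (0.784% of all values), and TPM for 57010 genes. Of the gene identifiers, 56310 had a symbol. All 81 columns of the deposited count matrices equalled the files of the single libraries.

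Expected counts were rounded. Kept were genes that passed 0.1 CPM in 10 or more libraries of a fit (0.1 CPM was 0.0358–0.474 counts, so that a single count passed), and these were scaled by TMM and tested in edgeR 4.0.16 (R 4.3.3) with glmQLFit (robust) and glmQLFTest, two-sided, with Benjamini-Hochberg adjustment over all genes tested. Genotype was fitted per population and diet, diet and its interaction over the 4 groups of a population, and population with the mouse as a block. The SE is the LFC over the root of F, and intervals are 95%. The study's covariates (RNA concentration and Picard percentages) were not used here. CPM shown are scaled by 1 TMM over all libraries (20493 genes) and no batch is given in the labels. Libraries of a group came from separate mice. Over 241 pairs within groups the lowest chi-square per degree of freedom was 1.6, above sampling noise. Libraries of the same mouse deviated together (median residual r 0.111 over 78 pairs from 0.00484 to 0.262, 46 over 0.1, against −0.0173 for other mice, over 6928 genes), and the pairing comes from the mouse numbers in the labels.

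The members and all gene lists were chosen with earlier results of these data known. Named genes are the members, the 3 genes of each list with the smallest p and the 3 genes most like each receptor chain over 12 group means of at least 2 CPM. Alternatives were library totals, RLE size factors, other filters, DESeq2 1.42.0, limma-voom (limma 3.58.1), both diets in a single fit, no block and each mouse left out. Leaving out 2 doubted CA1 libraries, leaving out CA1 libraries higher in CA2 than in CA1 markers and summing Ifnar2, Il10rb and Gm21970 were chosen after seeing the data. The fits were tested on simulated data. A gene of the pathway lists, counted in its list, and a promoter sequence are not reported here.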

Additional observations from a re-analysis of the deposited data

Results flagged for a closer look

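Of 108 groups of a member, population, genotype and diet, 9 held a library that stood apart from the others by Dixon's 95% criterion, which chance does for about 1 in 20 groups. Ifnar1 was at 53.5 CPM in the CA1 library labelled 2N of mouse 17-154 on ChN, the next 2N library being at 37.8. Ifnar2 was at 29.7 CPM in CA3 PNs of Ts mouse 15-245 on ChP (next 17.4), and Ifngr2 at 86.2 in CA1 PNs of Ts mouse 17-173 (next 78.2) and 32.4 in DGCs of 2N mouse 15-145 (next 26.8), both on ChN. Ifngr1 was at 14.5 CPM in CA3 PNs of 2N mouse 16-90 on ChP (next 5.78). Among the kinases, Jak1 was at 230 CPM in DGCs of Ts mouse 17-173 on ChN (next 191), Jak2 was low at 26.0 in CA1 PNs of Ts mouse 16-357 on ChN (next 49.2), and Tyk2 was at 20.5 in CA1 PNs of 2N mouse 15-334 (next 13.5) and 43.0 in DGCs of 2N mouse 15-296 (next 29.5) on ChP. The CA1 library of mouse 16-357 is among the 6 with more CA2 than CA1 markers.

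The genotype difference varied with diet for Ifngr2 in CA3 PNs (−0.46, SE 0.16, edgeR adjusted p = 0.983), of 27 such tests of members. It varied between populations for Ifngr2 between CA1 PNs and DGCs on ChN (−0.43, SE 0.21, adjusted p = 1.0) and for Il10rb between CA1 and CA3 PNs on ChP (1.75, SE 0.79, adjusted p = 1.0), of 54 tests. These calls lie near the 3.52%–4.90% of all genes called. Il10rb was at 0 in 4 of 7 2N libraries of CA1 PNs on ChP, and its genotype difference there is set aside above. None of these differences passed adjustment. Their causes were not tested.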

How the results depend on the processing

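Of 2629 member values recomputed under the alternatives, 2598 stayed on their side of the threshold (117 of them uncalled values that changed sign), 16 lost a call, 15 gained a call and 0 called values changed sign. The number of triplicated chains called higher in Ts (3, 3 and 3 in CA1 PNs, CA3 PNs and DGCs on ChN and 4, 3 and 4 on ChP, the counts of 4 including Il10rb, which passed the low-count filter there mainly through Ts) stayed within 1.5 times under all alternatives run. Ifngr2 kept its genotype call in all 127 values, Ifnar1 in 126 of 127 and Ifnar2 in 123 of 133: Ifnar2 fell short in CA1 PNs on ChN without mouse 17-157 or 17-172 or with the 3 overlapping models summed, in DGCs on ChN without 16-490, in CA3 PNs on ChP with DESeq2, limma-voom or without 15-269 or 15-245, and in DGCs on ChP without 15-269 or 17-03. Disomic members gained a call 3 times: Stat2 in CA1 PNs on ChN with library totals (0.40) and Ifngr1 there with limma-voom (−0.96) or without 17-157 (−1.02). Counts of members called by diet moved from 0 to 1 in 2N CA1 PNs without mouse 17-154 (Ifnar1 0.33), and from 1 to 0 in Ts DGCs with filterByExpr, which removed Ifngr1. The interaction count in CA1 PNs moved from 0 to 1 without mouse 17-154. Between CA1 and CA3 PNs on ChP, the population count moved from 1 to 0 with filterByExpr, which removed Il10rb, and to 4 without CA1 libraries higher in CA2 markers. Without these libraries, genotype by population moved from 1 to 0 between CA1 PNs and DGCs on ChN (Ifngr2 −0.35), from 1 to 0 between CA1 and CA3 PNs on ChP (Il10rb 1.35) and from 0 to 1 between CA3 PNs and DGCs on ChP (Il10rb −1.44), and the first of these was also 0 with library totals (−0.37) and ranged from 0 to 1 over the mice left out. Jak2 was called between CA3 PNs and DGCs on ChN with library totals (−0.52, adjusted p = 0.0198) and between CA1 PNs and DGCs without 17-21 (0.49, adjusted p = 0.0248). With no replicate block for the mouse, genotype by population counts moved from 0 to 1 between CA1 and CA3 PNs on ChN (Ifngr2 −0.36) and between CA3 PNs and DGCs on ChP (Ifngr2 −0.48), and the pairing changed no other member call. Within 1 population no paired analysis was possible because each mouse gave a single library. Apart from the filters, which remove genes, the causes were not tested. Depth limits Il10rb and Ifngr1, at 0–29 and 0–23 counts per library, for which differences of 1.5-fold could mostly not be told from none. Intervals of Tyk2 and Stat2 also held both 1.5-fold and no difference in 3 of 6 genotype comparisons each, and those of Jak2 in 1 of 6.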
